A study of Mus musculus with 6 samples.

Results

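The genes described here are 35 mouse genes of the hypoxia-inducible factor (HIF) pathway and of glycolysis, out of 37224 gene IDs in the deposited expression table. They were taken by symbol: 3 HIF subunits, 4 genes that mark HIF for destruction, 5 genes that HIF is known to induce, 2 glucose transporters, 14 glycolytic enzymes, 2 bifunctional regulators of glycolysis, 2 lactate dehydrogenases with 1 pyruvate dehydrogenase kinase, and 2 lactate transporters. Each symbol matched exactly 1 row. RNA-seq was made from mouse embryonic fibroblasts (MEF, connective tissue cells cultured from embryos) of C57BL/6 background in 4 groups of 1 library each: wild type untreated, wild type with low-dose sodium arsenite, Dot1L-/- untreated and Dot1L-/- with low-dose sodium arsenite. Dot1L is the enzyme that methylates lysine 79 of histone H3, and the Dot1L-/- cells are called null below. All cells were grown in high-glucose medium with fetal bovine serum, and exposure lasted 24 h. The protocol lists 5 and 10 µM arsenite without naming the dose that was sequenced. With 1 library a group no difference has a replicate check, no p-value was computed, and every interval below is a 95% interval that covers counting error only.

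HIF is a transcription factor made of an oxygen-regulated alpha subunit (Hif1a, or Epas1 for HIF-2α) and a stable beta subunit (Arnt). When oxygen is plentiful, prolyl hydroxylases (Egln1, Egln2 and Egln3) mark the alpha protein and the VHL ubiquitin ligase has it destroyed, so that HIF is known to be controlled mainly at the level of protein, which RNA-seq does not measure. Its known targets include genes for blood vessel growth, mitochondrial clearance and most steps of glycolysis, the pathway that turns glucose into pyruvate and, through lactate dehydrogenase, into lactate.

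Values are RPKM, reads per kilobase of gene and scaled to library size, so that levels of different genes can be compared per length. Recovered depth was 62972880 and 64699847 reads in the untreated wild-type and null libraries, and 10833103 and 11879632 in the arsenite libraries of the same genotypes. Dot1l stood at 30.4 RPKM in untreated wild type and 9.59 in untreated null cells, so it was lower but not absent in the null library. With arsenite it stood at 5.71 in wild type and 1.24 in null cells, so wild type with arsenite lay below untreated null cells. Hmox1, a sentinel gene of arsenite exposure, stood at 82.4 and 416 in wild type and at 405 and 618 in null cells, untreated and with arsenite. Of 9 fibroblast markers, 7 were at 1 RPKM or more in 3 libraries and 6 in wild type with arsenite, while Thy1 was listed at 0 in all 4. Their summed RPKM was 1965 and 799 in wild type, untreated and with arsenite, and 1326 and 1161 in null cells. The next values are in the order wild type untreated and with arsenite, then null untreated and with arsenite. Most of the fibroblast sum was Vim, at 1310, 702, 893 and 1001. Col1a1 stood at 335, 63.9, 133 and 72.2, and Col1a2 at 64.2, 9.58, 206 and 50.9. Col3a1 stood at 135, 12.1, 12.9 and 10.3, and Dcn at 60.7, 3.85, 19.4 and 5.94. Pdgfrb stood at 58.0, 6.96, 56.6 and 18.5, and Pdgfra at 2.59, 0.260, 4.39 and 2.15. Lum was at 0.0459 or less in every library. Sums of 5 macrophage and leukocyte markers were 23.7, 16.0, 3.64 and 7.94. In wild type most of this was Cd14, which stood at 21.1, 11.6, 1.16 and 1.71. Cd68 stood at 2.59, 4.26, 2.02 and 5.56. Csf1r was higher in null cells, at 0.0683, 0.0189, 0.456 and 0.672, and Ptprc and Adgre1 were at 0.0569 or less in every library. By the same order 5 epithelial markers summed to 3.46, 1.25, 7.89 and 22.5, highest in null cells with arsenite, where Krt19 alone stood at 22.4 against 0.796 in wild type with arsenite. Epcam, Cdh1 and Krt8 were at 0 in null cells with arsenite, and Cdh1 was highest in untreated wild type, at 2.71. The sums of 4 endothelial markers lay between 0.0721 and 1.87. In these bulk samples, fewer cells of a type and less RNA per cell cannot be told apart. The part of marker levels in the results below was not tested.

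**Figure D1:**
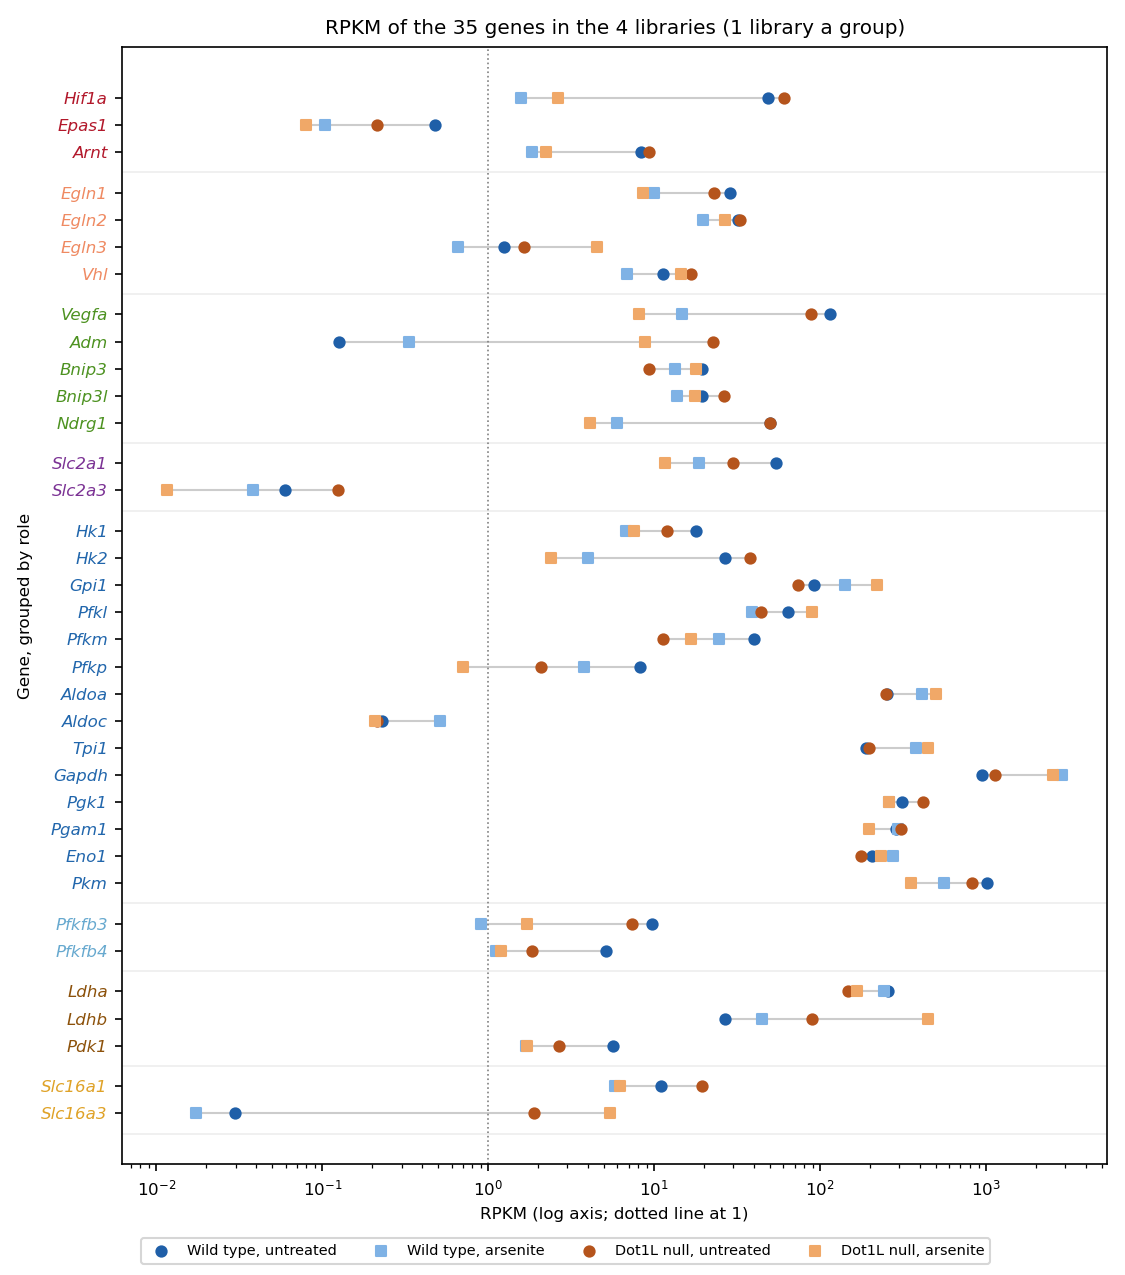
RPKM of each of the 35 genes on a log axis, grouped by role, in the 4 libraries (circles untreated, squares with arsenite; blue wild type, orange null; grey lines span the range). Hif1a, Vegfa, Ndrg1 and Hk2 show the arsenite squares far to the left of the circles in both genotypes, while Gapdh, Tpi1, Aldoa and Gpi1 show them to the right.

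Hif1a (ENSMUSG00000021109, chromosome 12, 73901324 to 73947554 in GRCm38) was the lowest of the listed genes with arsenite relative to untreated cells in both genotypes. It had 18070 reads in untreated wild type and 100 with arsenite, or 48.7 and 1.57 RPKM, which is 31.1-fold lower (25.5 to 38.2). In null cells it had 23021 and 185 reads, or 60.3 and 2.64 RPKM, 22.8-fold lower (19.8 to 26.5). Among the 12588 genes with at least 1 RPKM in any library, its log2 difference ranked 8 from the lowest in wild type and 62 from the lowest in null cells. The rank of its level among all genes went from 1190 to 9043 in wild type and from 961 to 6956 in null cells.

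Arnt, the beta subunit, was lower as well, by 4.53-fold in wild type (3.87 to 5.34; 8.31 to 1.83 RPKM) and 4.21-fold in null cells (3.67 to 4.86; 9.35 to 2.22 RPKM). Because Hif1a was lower by more than Arnt, wild-type cells had a Hif1a to Arnt ratio of 5.86 untreated and 0.854 with arsenite, and null cells one of 6.46 and 1.19. Epas1, the other alpha subunit, was barely present: its RPKM was 0.479 and 0.104 in wild type and 0.213 and 0.0793 in null cells, untreated and with arsenite, on 160, 6, 73 and 5 reads. It did not reach 1 RPKM in any library and was not counted.

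HIF is known to bind a short core motif, searched here as ACGTG or GCGTG on either strand. The search covered the 250 bases before each start site that had an entry (RefSeq, GRCm38.p6). Of the 35 genes 31 had an entry, with 46 windows, of which 37 (80.4%) held the motif. Over all genes listed there, 38.6% of 32851 windows did, and 64.2% of those with at least 10 CG pairs, against 84.4% of 32 such member windows. ACGTG overlaps CACGTG, the E-box bound by other factors such as MYC, and 6 of the 46 member windows held that longer form, against 6.02% of all windows. The windows of Hif1a and Hk2, both far lower with arsenite in the 2 genotypes, of Gapdh, higher in both, and of Ldhb, higher mostly in null cells, are shown 5′ to 3′ with each match on either strand in capitals.
Hif1a, chr12:73907617-73907866, plus strand: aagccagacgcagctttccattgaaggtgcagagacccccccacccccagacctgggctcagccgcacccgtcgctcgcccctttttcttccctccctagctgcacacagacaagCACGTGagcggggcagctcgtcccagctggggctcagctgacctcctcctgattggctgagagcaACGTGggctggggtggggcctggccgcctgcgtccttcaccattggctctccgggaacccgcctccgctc
Hk2, chr6:82774455-82774704, minus strand: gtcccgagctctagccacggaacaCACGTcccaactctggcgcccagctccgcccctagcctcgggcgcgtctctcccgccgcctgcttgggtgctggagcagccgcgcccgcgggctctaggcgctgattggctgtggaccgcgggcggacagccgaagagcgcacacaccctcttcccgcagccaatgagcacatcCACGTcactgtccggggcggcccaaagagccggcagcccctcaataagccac
Gapdh, chr6:125165774-125166023, minus strand: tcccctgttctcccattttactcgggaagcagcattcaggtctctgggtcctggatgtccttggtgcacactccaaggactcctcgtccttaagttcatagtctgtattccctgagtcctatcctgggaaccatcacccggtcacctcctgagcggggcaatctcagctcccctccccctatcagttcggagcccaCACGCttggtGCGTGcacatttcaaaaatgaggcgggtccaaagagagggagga
Ldhb, chr6:142507958-142508207, minus strand: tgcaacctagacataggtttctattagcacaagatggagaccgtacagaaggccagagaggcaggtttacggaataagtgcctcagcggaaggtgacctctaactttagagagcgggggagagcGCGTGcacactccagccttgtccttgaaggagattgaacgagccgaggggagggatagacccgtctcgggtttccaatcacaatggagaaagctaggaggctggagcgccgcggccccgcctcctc
Hif1a and Hk2 thus hold matches, as do Gapdh and Ldhb. Hif1a and Gapdh had 1 window each, which lies inside the gene span given for them. The bases before the outermost 5′ end of those spans were therefore not searched. A match is a stretch of letters, and binding was not measured.

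The hydroxylases differed from each other. Egln1 (PHD2), regarded as the main oxygen sensor of most cells, was 2.86-fold lower with arsenite in wild type (2.58 to 3.19; 28.4 to 9.93 RPKM) and 2.65-fold lower in null cells (2.38 to 2.95; 22.8 to 8.60 RPKM). Egln2 (PHD1) stood at 31.9 and 19.7 RPKM in wild type and at 32.7 and 26.5 in null cells, under 2-fold in each. Vhl, the substrate-binding part of the ligase, stood at 11.3 and 6.81 in wild type and at 16.7 and 14.4 in null cells, also under 2-fold. Egln3 (PHD3), itself a known HIF target, was at 1.25 RPKM in untreated wild type and 0.659 with arsenite, but at 1.65 in untreated null cells and 4.52 with arsenite, 2.74-fold higher (2.23 to 3.36) in the latter genotype. Egln3 thus took 2.02%, 2.17%, 2.89% and 11.4% of the summed hydroxylase RPKM in wild type untreated and with arsenite and in null cells untreated and with arsenite. Hif1a was above Egln1 in both untreated libraries, by 1.71 and 2.65 times, and below it in both arsenite libraries, at 0.158 and 0.307 times its RPKM.

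Of the 5 hypoxia targets, Vegfa and Ndrg1 were much lower with arsenite in both genotypes. Vegfa, the growth factor of blood vessels (ENSMUSG00000023951, chromosome 17, 46016993 to 46032377), stood at 114 and 14.8 RPKM in wild type, 7.70-fold lower (7.14 to 8.31), and at 88.2 and 8.10 in null cells, 10.9-fold lower (9.88 to 12.0). Ndrg1, a stress-inducible gene, stood at 49.5 and 5.94 in wild type, 8.34-fold lower (7.58 to 9.20), and at 49.6 and 4.09 in null cells, 12.1-fold lower (10.9 to 13.6). The other targets did not share this. Bnip3 and Bnip3l, receptors for the removal of mitochondria, were under 2-fold in each genotype: Bnip3 stood at 19.5 and 13.4 RPKM in wild type and at 9.29 and 18.0 in null cells, and Bnip3l at 19.3 and 13.7 and at 26.2 and 17.6. Adm, which encodes the vessel-dilating peptide adrenomedullin, was close to background in wild type, with 11 reads untreated and 5 with arsenite (0.126 and 0.334 RPKM). In null cells it had 2029 and 144 reads, or 22.7 and 8.78 RPKM, 2.59-fold lower with arsenite (2.18 to 3.09).

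At the entry of glycolysis, RNA of the glucose transporter Slc2a1 and of the hexokinase Hk2 was at least 2-fold lower with arsenite in both genotypes. Slc2a1 (GLUT1), the glucose transporter of most cells, stood at 54.0 and 18.6 RPKM in wild type, 2.91-fold lower (2.67 to 3.17), and at 29.8 and 11.7 in null cells, 2.56-fold lower (2.31 to 2.84). After centring its log2 differences were −0.93 and −0.75, under 2-fold, and with the length trend removed they were −1.07 and −0.84. Slc2a3 (GLUT3) had 27, 3, 58 and 1 reads over the 4 libraries and did not pass the filter. Hk2, the inducible hexokinase (ENSMUSG00000000628, chromosome 6, 82725025 to 82774454), stood at 26.6 and 4.01 RPKM in wild type, 6.64-fold lower (5.87 to 7.54), and at 37.7 and 2.40 in null cells, 15.7-fold lower (13.5 to 18.4). Hk1, the housekeeping form, stood at 17.9 and 6.75 in wild type, 2.65-fold lower (2.44 to 2.87), and at 11.9 and 7.53 in null cells, 1.59-fold lower (1.47 to 1.71). Hk2 therefore made up 59.8% of the hexokinase RPKM in untreated wild type and 37.2% with arsenite, against 75.9% and 24.2% in null cells. Summed over both forms, hexokinase RPKM was 44.5 and 10.8 in wild type and 49.6 and 9.93 in null cells.

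RNA was measured for phosphofructokinase, the enzyme of the committing step, and for Pfkfb3 and Pfkfb4, which make the fructose 2,6-bisphosphate that stimulates it. Enzyme activity was not measured. Pfkfb3 stood at 9.72 and 0.906 RPKM in wild type, 10.7-fold lower with arsenite (8.46 to 13.8), and at 7.35 and 1.70 in null cells, 4.32-fold lower (3.65 to 5.15). Pfkfb4 stood at 5.10 and 1.12 in wild type, 4.56-fold lower (3.42 to 6.22), and at 1.84 and 1.19 in null cells, 1.55-fold lower (1.17 to 2.08). Of the enzyme genes, Pfkl, Pfkm and Pfkp were under 2-fold with arsenite in both genotypes on the log2(RPKM + 1) scale. Pfkl, the liver-type subunit, stood at 64.4 and 38.5 RPKM in wild type and at 44.3 and 89.1 in null cells. In null cells its read ratio was 2.01-fold higher (1.94 to 2.08), and its log2(RPKM + 1) difference of 0.992 lay just under the threshold of 1. Pfkm, the muscle-type subunit, stood at 40.1 and 24.5 in wild type and at 11.3 and 16.7 in null cells. Pfkp, the platelet-type subunit, stood at 8.21 and 3.76 in wild type and 2.09 and 0.708 in null cells. By read ratio it was 2.18-fold lower in wild type (1.97 to 2.43) and 2.95-fold lower in null cells (2.35 to 3.76). Summed over the 3 subunits the RPKM was 113 and 66.8 in wild type and 57.7 and 106 in null cells.

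Among the enzymes of the middle steps, Gapdh passed 2-fold with arsenite in both genotypes, and Tpi1, Aldoa and Gpi1 in null cells. Gapdh, which oxidizes glyceraldehyde 3-phosphate (ENSMUSG00000057666, chromosome 6, 125161852 to 125166467), was the highest, at 941 and 2874 RPKM in wild type, 3.06-fold higher (3.03 to 3.08), and at 1129 and 2541 in null cells, 2.25-fold higher (2.23 to 2.27). Tpi1, triose phosphate isomerase, was 2.00-fold higher in wild type (1.96 to 2.05; 190 to 380.1 RPKM) and 2.27-fold higher in null cells (2.22 to 2.32; 196 to 446 RPKM). Its log2(RPKM + 1) difference of 0.999 in wild type lay just under the threshold of 1. Aldoa, aldolase A, was 1.62-fold higher in wild type (1.59 to 1.66; 252 to 409 RPKM) and 2.02-fold higher in null cells (1.98 to 2.06; 248 to 501 RPKM). Gpi1, glucose phosphate isomerase, was 1.52-fold higher in wild type (1.48 to 1.56; 92.3 to 141 RPKM) and 2.96-fold higher in null cells (2.89 to 3.02; 73.8 to 218 RPKM).

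Further down the pathway, differences were smaller or opposite. Eno1, enolase 1, stood at 205 and 275 RPKM in wild type and at 176 and 231 in null cells. Its near-identical copy Eno1b stood at 291, 270 and, in null cells, 152 and 59.6, and how reads were split between them is not given, so the level of Eno1 is uncertain. Pgk1 stood at 311 and 261 in wild type and at 414 and 260.0 in null cells, and Pgam1 at 284 and 295 and at 305 and 198. In null cells Pgk1 and Pgam1 were 1.59-fold (1.55 to 1.63) and 1.54-fold (1.49 to 1.59) lower. Pkm, pyruvate kinase of the last step, was 1.83-fold lower with arsenite in wild type (1.80 to 1.86; 1017 to 556 RPKM) and 2.35-fold lower in null cells (2.31 to 2.40; 825 to 351 RPKM). Gapdh and Pkm, nearly level in untreated wild type (a ratio of 0.925), differed by 5.17 times with arsenite; in null cells the ratio was 1.37 and 7.24. Aldoc, aldolase C, was at 0.509 RPKM or less in every library. Gapdh, Pgk1, Ldha and other genes of this group have processed copies in the genome, and reads that fit several of them could be counted elsewhere.

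**Figure D2:**
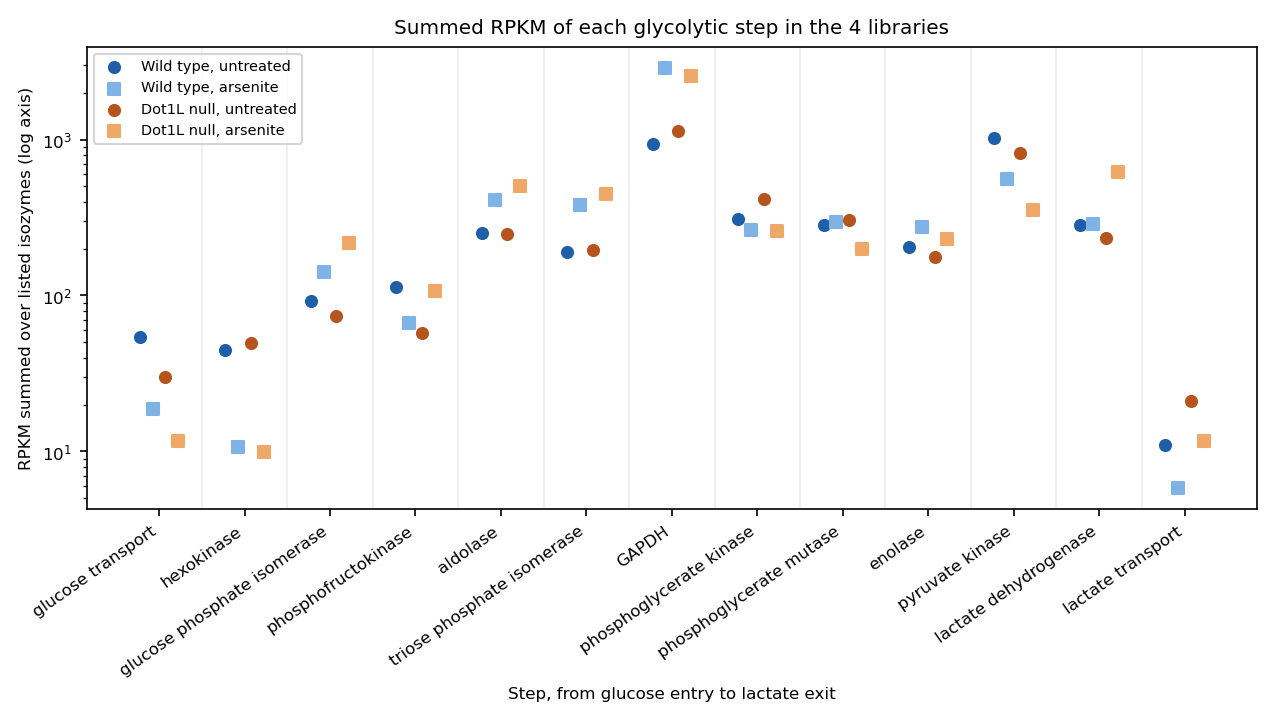
RPKM summed over the listed isozymes of each step, on a log axis, from glucose entry to lactate exit (circles untreated, squares with arsenite; blue wild type, orange null). Transport and hexokinase lie lower with arsenite in both genotypes, the steps from aldolase to GAPDH lie higher, pyruvate kinase lies lower, and phosphofructokinase lies lower in wild type and higher in null cells.

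The lactate dehydrogenases differed from each other in null cells. Ldha, the form associated with lactate production, stood at 255 and 243 RPKM in wild type and at 146 and 167 in null cells. Ldhb, the form associated with lactate use, stood at 26.8 and 44.3 in wild type, 1.66-fold higher (1.53 to 1.80), and at 88.8 and 449 in null cells, 5.06-fold higher (4.91 to 5.21). Of the epithelial markers, Krt19 had its highest level in that same library, where Epcam, Cdh1 and Krt8 were at 0. The part of Krt19-expressing cells in the Ldhb result was not tested. Ldhb made up 9.51% and 15.4% of the lactate dehydrogenase RPKM in wild type, untreated and with arsenite, and 37.8% and 72.9% in null cells. Pdk1 limits the oxidation of pyruvate in mitochondria by inhibiting pyruvate dehydrogenase. It stood at 5.65 and 1.69 in wild type, 3.35-fold lower (2.83 to 4.00), and at 2.67 and 1.70 in null cells, 1.57-fold lower (1.33 to 1.87).

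Slc16a1 (MCT1) stood at 10.9 and 5.80 RPKM in wild type and at 19.3 and 6.20 in null cells, 3.12-fold lower with arsenite in the latter (2.79 to 3.49). Slc16a3 (MCT4), a lactate exporter of glycolytic cells and a known HIF target, had 10 reads in untreated wild type and 1 with arsenite, against 647 and 341 in null cells. Its RPKM was 0.0299, 0.0174, 1.88 and 5.40, so it passed the filter only through the null libraries. In null cells it was 2.87-fold higher with arsenite (2.51 to 3.28) and made up 8.87% and 46.5% of the lactate transporter RPKM, against 0.273% and 0.298% in wild type.

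**Figure D3:**
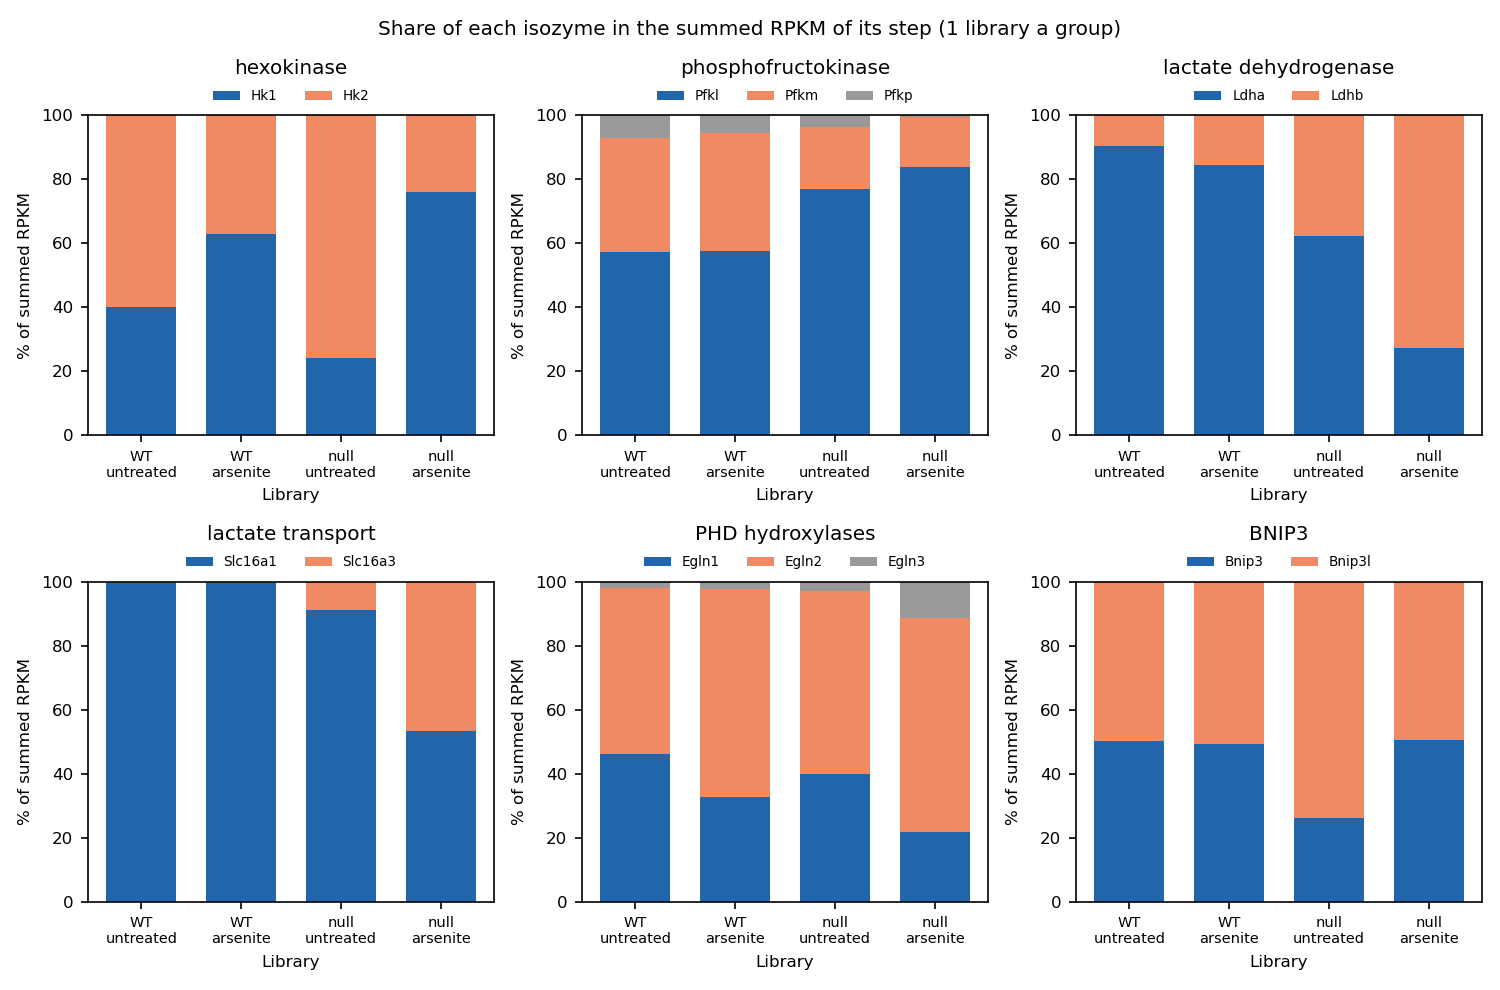
Share of each isozyme in the summed RPKM of its step, in percent, for 6 steps and the 4 libraries (WT, wild type; 1 library a bar). Hk2 gives way to Hk1 with arsenite in both genotypes, and Ldhb, Slc16a3 and Egln3 have their largest shares in null cells with arsenite.

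Counted over the 32 genes that reached 1 RPKM in any library, 1 was at least 2-fold higher with arsenite in wild type and 11 were at least 2-fold lower on the log2(RPKM + 1) scale. In all, 12.8% of the 12588 genes were higher and 35.7% lower by the same rule. In null cells 7 were higher and 11 lower, where 15.2% and 37.1% of all genes were. The members lower were thus near the background share in both genotypes, and 8 were lower in both (26.3% of all genes were): Hif1a, Arnt, Egln1, Vegfa, Ndrg1, Slc2a1, Hk2 and Pfkfb3. Gapdh was at least 2-fold higher in both, against 8.40% of all genes. Past 2-fold in opposite ways were 0 members and 0.357% of all genes. The 2 arsenite comparisons share no library. By the looser rule of counting intervals on opposite sides of 1, arsenite values went opposite ways in the genotypes for 6 members (Egln3, Bnip3, Pfkl, Pfkm, Pgam1 and Ldha) and for 8.09% of all genes. Of these members, only Pfkm kept opposite signs both after centring and with the length trend removed, as described below.

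**Figure D4:**
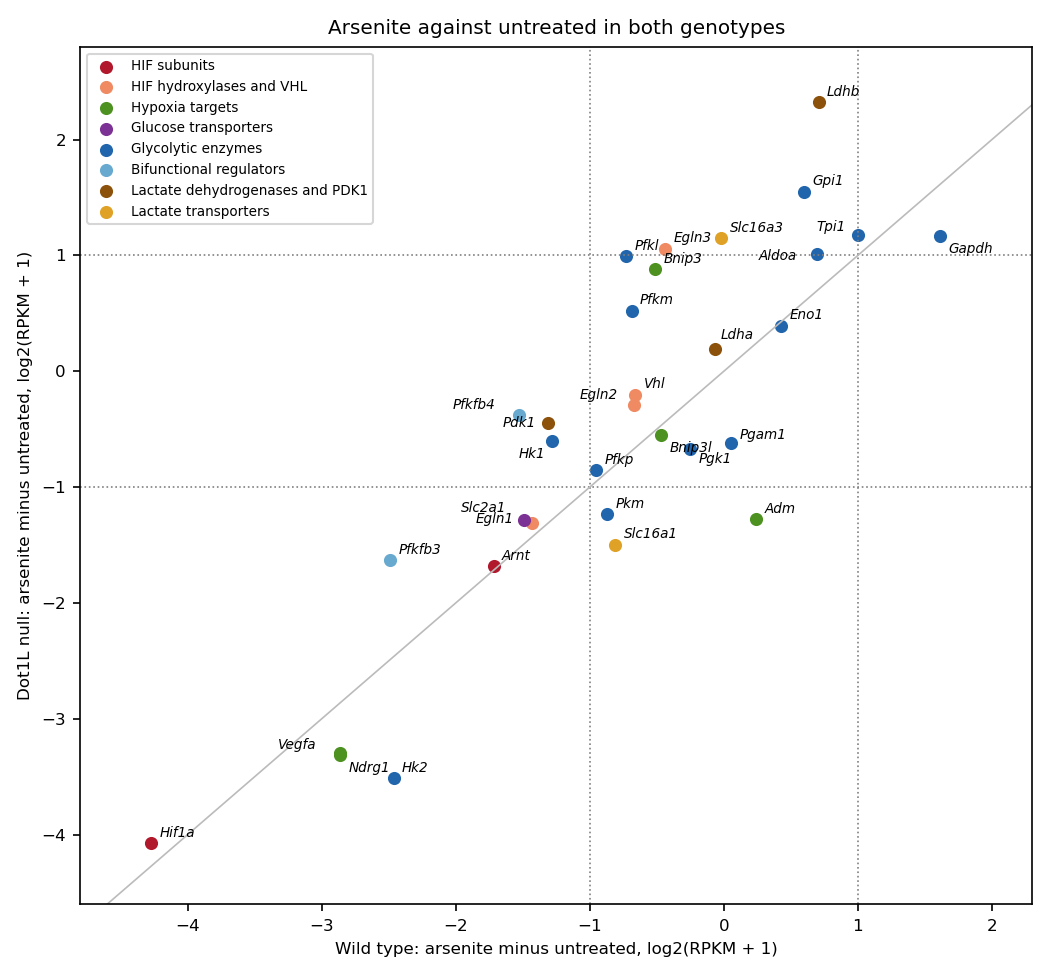
Log2(RPKM + 1) difference between arsenite and untreated cells in wild type (horizontal) and null cells (vertical) for the 32 genes past the filter, coloured by role; dotted lines mark 2-fold and the grey line equal differences. Hif1a, Vegfa, Ndrg1 and Hk2 lie farthest toward lower in both, and Ldhb lies highest in null cells.

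These splits depended on scaling. The median of all genes was −0.56 in wild type and −0.53 in null cells. After centring on that median, 5 members were higher and 6 lower in wild type, where 21.6% and 19.4% of all genes were. In null cells 10 were higher and 6 lower, where 23.4% and 23.8% were. After scaling to the 75th percentile the counts were 5 and 7 in wild type (18.4% and 23.5% of all genes) and 11 and 6 in null cells (23.0% and 26.4%). Centring turned the sign of 6 members in wild type (Egln3, Bnip3, Bnip3l, Pgk1, Ldha and Slc16a3) and of 4 in null cells (Egln2, Vhl, Pfkfb4 and Pdk1), each under 2-fold before.

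Gene length moved with the differences too. Among all genes the median log2 difference in wild type was 0.33 for lengths of 1000 to under 2000 bases and −1.45 for 8000 to under 12000, and in null cells 0.31 and −1.36. Member lengths, recovered from the deposited values, ran from 1381 bases (Adm) to 9395 (Pfkp). With the length trend removed, 6 members were higher and 6 lower in wild type, where 15.8% and 15.4% of all genes were, and 11 higher and 5 lower in null cells, where 20.0% and 21.0% were. Lower in both genotypes were then Hif1a, Vegfa, Ndrg1 and Hk2, as were 10.3% of all genes, and higher in both were Gpi1, Aldoa, Tpi1, Gapdh, Eno1 and Slc16a3, as were 10.0% of all genes. Hif1a had values of −3.13 and −2.93 on that scale, Vegfa −2.02 and −2.45, Ndrg1 −1.64 and −2.08, and Hk2 −1.31 and −2.35. Arnt, of 8007 bases, moved to −0.37 and −0.36, and Egln1 to −0.78 and −0.62, so neither was past 2-fold once length was taken out. Slc16a3 had 10 reads in untreated wild type and 1 with arsenite, and its log2 difference there was −0.02 before the trend was removed. Its value of 1.04 afterwards comes from the subtracted trend. Slc16a3 passed the filter only through the null libraries, so its call as higher in wild type adds no support.

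**Figure D5:**
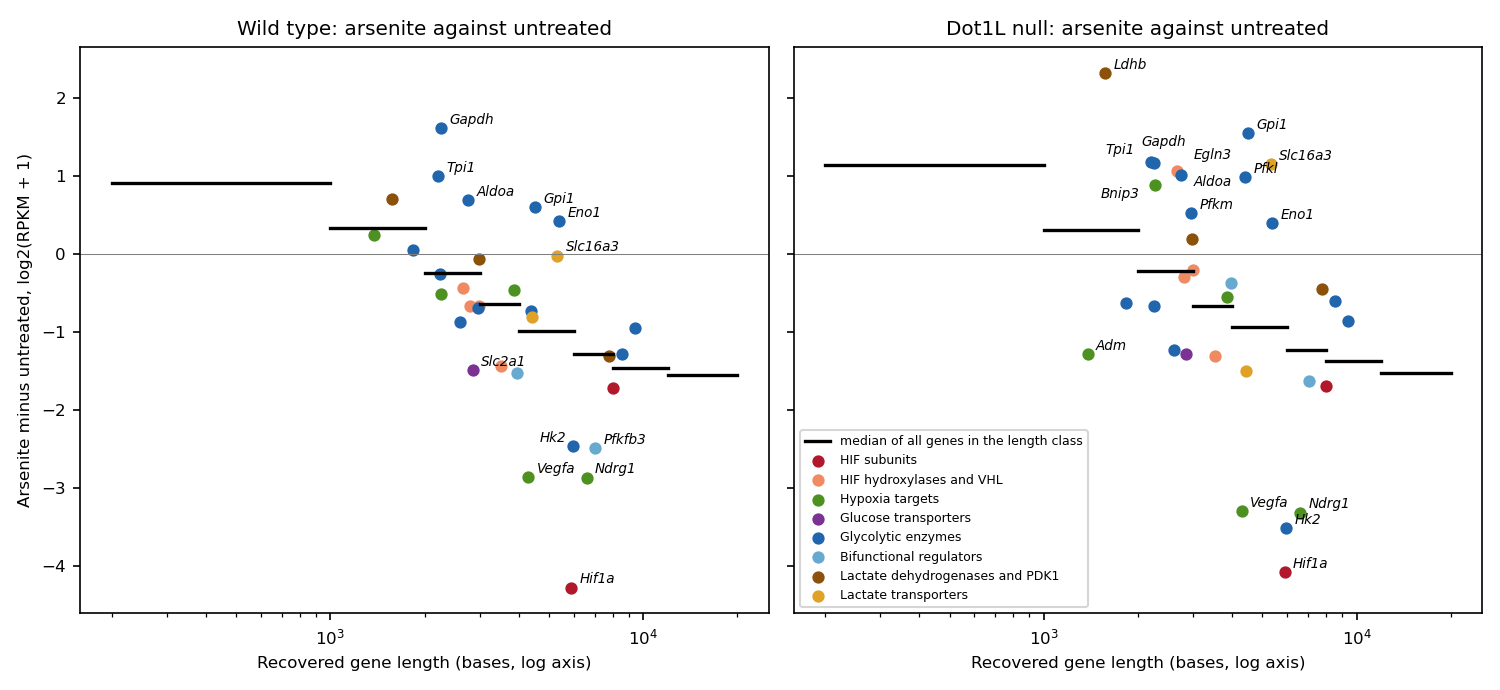
Log2(RPKM + 1) difference between arsenite and untreated cells against recovered gene length (log axis) for the 32 genes past the filter, in wild type (left) and null cells (right); black bars are medians of all genes in each length class. Named genes lie at least 2-fold from the length trend: Hif1a lies −3.13 and −2.93 from it, and Ldhb lies 2.02 above it in null cells.

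The HIF core motif, described above for 31 genes, was set beside these calls. All 10 genes with an entry that were lower with arsenite in wild type had the motif in at least 1 window, as had 16 of 19 that were under 2-fold and the 1 that was higher. In null cells the counts were 10 of 10 lower, 12 of 13 under 2-fold and 5 of 7 higher genes. Of the 31, only Gpi1, Tpi1 and Vhl had no motif in any window, so these counts do not set the lower genes apart. The shares of all genes given above are per window, and a share per gene was not computed. A link between motif and call was not tested.

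The HIF subunits, hydroxylases and Vhl were set against the glycolytic enzymes in each comparison. With arsenite in wild type, the 6 HIF genes past the filter had a median log2 difference of −1.05 and the 13 enzymes one of −0.25, a gap of 0.80 in favour of the enzymes. In null cells the medians were −0.80 and 0.39, a gap of 1.19. Centring left the gap as it was, and 75th percentile scaling gave 0.83 and 1.23. With the length trend removed the gap was 0.46 in wild type and 1.13 in null cells. It also depended on Epas1 and Aldoc, which are nearly absent: with all 7 HIF genes and 14 enzymes it was 0.57 and 0.49. Gapdh and Hif1a, at the ends of the range, had an RPKM ratio of 19.3 untreated and 1836 with arsenite in wild type, and of 18.7 and 962 in null cells.

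Between untreated null and wild-type cells, the members past 2-fold were near the background share. Of the 32, 3 were at least 2-fold higher in null cells (Adm, Ldhb and Slc16a3) and 3 lower (Pfkm, Pfkp and Pfkfb4), where 6.45% and 14.7% of all genes were. Adm and Slc16a3 entered the 32 only through the null libraries, so their calls as higher follow from the filter and add no support, which leaves Ldhb. Adm was 179.5-fold higher (100.1 to 360.2), from 11 to 2029 reads, and ranked 23 from the highest of all genes on the log2(RPKM + 1) scale. Slc16a3 was 63.0-fold higher (34.0 to 132), from 10 to 647 reads. Ldhb was 3.32-fold higher (3.18 to 3.47). Pfkm was 3.55-fold lower (3.38 to 3.73), Pfkp 3.93-fold lower (3.69 to 4.18) and Pfkfb4 2.77-fold lower (2.49 to 3.08). After centring, the same 3 were higher (8.81% of all genes) and Pfkm and Pfkp lower (11.3%). With the length trend removed Pfkfb4 was at −0.87 and no longer past 2-fold, while Slc16a1 reached 1.00, giving 4 higher (9.22% of all genes) and 2 lower (10.9%). HIF regulators were near level between the untreated genotypes, from 1.25-fold lower for Egln1 (1.20 to 1.30) to 1.48-fold higher for Vhl (1.40 to 1.56), with Hif1a 1.24-fold higher (1.22 to 1.26). The enzymes had a median of −0.22 and the HIF genes one of 0.20, a gap of −0.41.

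Between the arsenite libraries, 5 of the 32 were at least 2-fold higher in null cells (Egln3, Adm, Pfkl, Ldhb and Slc16a3) and Pfkp was lower, where 8.75% and 16.9% of all genes were. The calls of Adm and Slc16a3 follow from the filter here as well. Ldhb was 10.1-fold higher (9.40 to 10.9), Egln3 6.86-fold higher (4.24 to 11.7), Pfkl 2.31-fold higher (2.19 to 2.44) and Adm 26.3-fold higher (11.0 to 82.1). Slc16a3 had 1 read against 341, a ratio of 311 with a counting interval of 55.4 to 12318. Pfkp was 5.32-fold lower (4.16 to 6.86). After centring Vhl joined the higher genes, making 6 higher (12.8% of all genes) and 1 lower (9.64%), and with the length trend removed the counts were also 6 (12.5%) and 1 (8.96%).

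The arsenite difference in null cells minus that in wild type, which reuses all 4 libraries and is not separate evidence, reached 1 or more (log2) in 7 of the 32 (12.1% of all genes) and at most −1 in 2 (12.8%). The former were Pfkl (1.72), Ldhb (1.62), Egln3 (1.50), Bnip3 (1.39), Pfkm (1.21), Slc16a3 (1.17) and Pfkfb4 (1.15), and the latter Adm (−1.52) and Hk2 (−1.05). Adm and Slc16a3 passed the filter only through the null libraries. On the log2(RPKM + 1) scale their wild-type differences were small (0.24 and −0.02), so their values mostly restate the null difference and add no support. Hk2 was at −0.98 after centring and at −0.99 with the length trend removed, no longer past the threshold. Hif1a (0.20), Arnt (0.03), Egln1 (0.12) and Slc2a1 (0.21) lay near 0.

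Other genes of the pathway were examined by list. Of 8 further genes of the HIF machinery, 7 passed the filter. With arsenite in wild type 3 were higher and 4 lower, and in null cells 1 higher and 4 lower. The shares of all genes were 12.8% and 35.7% in wild type and 15.2% and 37.1% in null cells, for this list and the next. Elob, which encodes elongin B of the VHL ligase and is 508 bases long, stood at 207 and 1868 RPKM in wild type and at 312 and 2146 in null cells. Cited2, which competes with HIF for its coactivators, stood at 102 and 24.7 in wild type and at 177 and 16.9 in null cells. Arnt2, a relative of Arnt, stood at 6.59 and 1.26 and at 18.4 and 1.79. Cul2, the scaffold of the VHL ligase, stood at 14.2 and 6.47 and at 18.2 and 3.38. With the length trend removed, 2 of this list were higher and 1 lower in wild type (15.8% and 15.4% of all genes). In null cells 1 was then higher and 3 lower (20.0% and 21.0% of all genes). Arnt2 moved to −0.59 in wild type and −1.64 in null cells, and Cul2 to −0.22 and −1.31.

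Of 18 further hypoxia targets 17 were matched by symbol and 15 passed the filter. In wild type 4 were higher and 5 lower (median −0.61, against −0.56 for all genes), and in null cells 6 were higher and 4 lower (median 0.36, against −0.53). Bhlhe40, a transcriptional repressor, stood at 58.8 and 3.84 RPKM in wild type and at 31.5 and 8.26 in null cells. Ddit4, an inhibitor of mTOR signaling, stood at 37.5 and 4.00 and at 84.5 and 10.9. On the higher side, Mif, a cytokine of 554 bases, stood at 288 and 1695 and at 1011 and 2387. Fam162a, a mitochondrial protein gene of 635 bases, stood at 35.1 and 154 and at 98.4 and 566. With the length trend removed, 5 of this list were higher and 2 lower in wild type (15.8% and 15.4% of all genes). In null cells 6 were then higher and 3 lower (20.0% and 21.0% of all genes). Mif moved to 1.64 in wild type and 0.13 in null cells, and Fam162a to 1.20 and 1.44.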

How the data were processed

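RNA-seq was measured in 4 libraries of mouse embryonic fibroblasts, 1 per group; 2 H3K27ac ChIP libraries were not used here. The authors deposited RPKM values per Ensembl gene. TopHat, HTSeq, Bowtie, deepTools and the build mm10 are named in the submitters' processing notes without versions or roles; annotation and strand setting: not given in the sources used here. The labels name both rRNA removal and polyA RNA. Symbols were found for 35449 of 37224 IDs, and positions come from RefSeq GRCm38.p6.

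Reads and lengths were recovered from the whole-read steps of RPKM: depth as the most frequent value implied by 1 read in small RNA genes, length as the shortest that gives whole reads in every library (relative tolerance 1e-12). Of 505 small RNA genes with reads, 351 had a recovered length equal to the annotated span. If a true length is a multiple of the recovered one, reads are understated and intervals too wide. Controls were 5.81 (wild type) and 5.45 (null) times deeper than arsenite libraries.

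Differences are of log2(RPKM + 1), which understates low genes, over 12588 genes with RPKM of at least 1 in any library; 2-fold was the threshold. Read ratios carry exact 95% intervals (conditional, Clopper-Pearson), and reads without molecular identifiers are not independent molecules. The length trend was a lowess fit (fraction 0.3) on log2 length over genes of at least 200 bases. Alternatives were another pseudocount, filters, scalings and length. The method was tested on simulated data. Every member is given. Other pathway genes were named as at most 4 of a list, by largest arsenite difference, except that Mpc2, Eno3 and Bsg were added after their values were seen. Members and lists were chosen with earlier results of these data known. Python 3.11.15, scipy 1.17.1 and statsmodels 0.14.6 were used.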

Additional observations from a re-analysis of the deposited data

Results flagged for a closer look

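For 6 genes, arsenite and untreated libraries differed in opposite ways in the genotypes, with counting intervals on opposite sides of 1, as had 8.09% of all 12588 genes past the filter. The difference between genotypes was not tested against replicate error, as each group is 1 library. The arsenite difference in null cells minus that in wild type, on the log2(RPKM + 1) scale, was 1.50 for Egln3, 1.39 for Bnip3, 1.72 for Pfkl, 1.21 for Pfkm, −0.68 for Pgam1 and 0.26 for Ldha. With the length trend removed it was 1.58 for Egln3, 1.48 for Bnip3, 1.77 for Pfkl, 1.30 for Pfkm, −0.60 for Pgam1 and 0.35 for Ldha. Pfkl, Pfkm and Bnip3 had a lower level in untreated null than in untreated wild-type cells (1.45-fold, 3.55-fold and 2.10-fold), so the untreated libraries contribute to their values. For Bnip3 the arsenite libraries stood 1.34-fold apart (1.16 to 1.54), and for Pfkm null cells were 1.47-fold lower (1.32 to 1.64) with arsenite too. The opposite directions depended on scaling. After centring, Egln3 (0.12 in wild type and 1.59 in null cells), Bnip3 (0.05 and 1.42) and Ldha (0.49 and 0.73) were positive in both genotypes. With the length trend removed, Pfkl (0.14 and 1.86) and Ldha (0.41 and 0.70) were positive in both, and Pgam1 (−0.05 and −0.71) negative in both. Only Pfkm kept opposite signs under both settings.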

How the results depend on the processing

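No paired analysis was possible because each group holds 1 library and no test was run. Results in order are arsenite in wild type, arsenite in null cells, and untreated null against wild type. Members higher numbered 1, 7 and 3, and members lower 11, 11 and 3. With a pseudocount of 0.1 members higher in wild type were 2, and members lower in untreated null 5. Centred on the all-gene median, members higher in wild type were 5, and members lower were 6 in wild type and 6 in null cells. After 75th percentile scaling, members higher were 5 and 11 with arsenite and members lower 7 and 6. With the length trend removed, members higher were 6 and 11 and members lower 6 and 5. Fewer genes counted as lower after centring because the median of all genes was below 0, and fewer also did after 75th percentile scaling. The median of enzymes minus that of HIF regulators was 0.80, 1.19 and −0.41. It was 0.92, 1.24 and −0.46 with a pseudocount of 0.1, 0.57, 0.49 and −0.27 without a filter, 1.18, 1.70 and −0.37 with a filter at 5 RPKM, 0.83, 1.23 and −0.36 after 75th percentile scaling, and 0.46, 1.13 and −0.38 without the length trend. It kept its sign in all of these and was equal after centring. Among single genes, the log2 differences of Hk1 and Pdk1 with arsenite in wild type turned to 0.088 and 0.020 when the length trend was removed. Depth limits Epas1, Slc2a3, Aldoc, Slc16a3 and Adm most, with 10 or fewer reads in at least 1 library.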

Other observations

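Genes that carry pyruvate into mitochondria and oxidize it lie downstream of the genes above. Of 24 further glycolysis and pyruvate genes 17 passed the filter, of which 3 were at least 2-fold higher with arsenite and 5 lower in wild type (median −0.30), and 2 higher and 5 lower in null cells (median −0.13). For these and the next counts, 12.8% and 35.7% of all genes were higher and lower in wild type and 15.2% and 37.1% in null cells. Mpc1, a subunit of the mitochondrial pyruvate carrier, stood at 18.3 and 4.79 RPKM in wild type, untreated and with arsenite, and at 15.2 and 1.86 in null cells. Pdha1 and Dlat encode subunits of pyruvate dehydrogenase. Pdha1 stood at 81.7 and 24.4 in wild type and at 94.4 and 19.5 in null cells, and Dlat at 14.3 and 5.97 and at 10.5 and 1.86. Pfkfb2, a relative of Pfkfb3 and 9621 bases long, stood at 2.07 and 0.201 and at 4.93 and 0.289. The genes called higher were chosen after their values were seen: Mpc2, the other carrier subunit, stood at 3.82 and 9.95 and at 5.83 and 7.86, Eno3, an enolase, at 14.9 and 60.9 and at 8.80 and 31.8, and Bsg, a partner protein of lactate transporters, at 383 and 1096 and at 207 and 716. Of the 16 citric acid cycle genes, all past the filter, 2 were higher and 1 lower in wild type (median −0.10), and 0 higher and 5 lower in null cells (median −0.37), where all genes had medians of −0.56 and −0.53. Idh3a, a subunit of isocitrate dehydrogenase, stood at 34.6 and 21.5 in wild type and at 27.8 and 6.66 in null cells. The subunits of succinate dehydrogenase did not move alike: Sdha stood at 54.8 and 19.7 in wild type and at 37.6 and 14.4 in null cells. Sdhb stood at 50.5 and 139 and at 41.4 and 59.4, and Sdhd at 60.2 and 88.2 and at 85.0 and 32.6. With the length trend removed, 4 of the 17 pyruvate genes were higher and 1 lower in wild type, and 6 higher and 5 lower in null cells. Of the citric acid cycle genes, 4 were then higher and 0 lower in wild type, and 2 higher and 2 lower in null cells. Shares of all genes were 15.8% and 15.4%, and 20.0% and 21.0%. Dlat moved to −0.15 in wild type and −1.05 in null cells, Pdha1 to −0.99 and −1.47, Pfkfb2 to 0.06 and −0.83. The difference between genotypes in these counts was not tested.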
